A study of Mus musculus with 2 samples.

Results

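Transcripts of 39 cell cycle genes were followed across the leukocytes of mouse kidneys with aristolochic acid nephropathy. The genes were taken by symbol, 17 as an S-phase set and 22 as a mitotic set. All 39 symbols had 1 row each in both deposited count tables, out of 32285 genes, and the UMIs of each set were summed per cell. A UMI (unique molecular identifier) marks 1 captured RNA molecule. The cells were viable CD45-positive cells, sorted on the pan-leukocyte surface protein CD45 out of B6 mouse kidney after digestion with Liberase, a collagenase mixture. All cells came from the AAN CKD treatment (kidney disease after aristolochic acid, a plant toxin) at week 2, and no untreated kidney was analysed here. They were captured together for 3' sequencing as 1 single-cell sample, which antibody hashtags divide into hashed sample 1 and hashed sample 2. The labels do not say whether these are separate animals, and the sample title names 1 mouse, so that no test was possible. Paired values are those of hashed sample 1 and then hashed sample 2, and values over both together are called pooled. The title also reads W1, the protocol text human kidneys and the cell type label mesenchymal stem cells, all of which the week 2 time label, the mouse gene identifiers and the leukocyte genes below go against.

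A dividing cell first copies its DNA in S phase and then separates the copies in mitosis. Many S-phase genes are transcribed under E2F factors, while many mitotic genes are transcribed later under complexes that include B-MYB and FOXM1 and act through CCAAT boxes and the cell cycle gene homology region (CHR). In kidney, both T cells entering from blood and macrophages living in the tissue can divide locally, and the transcripts of these genes are the usual marks by which dividing cells are found in single-cell data. The S-phase set holds the helicase genes Mcm2, Mcm3, Mcm4, Mcm5, Mcm6 and Mcm7, their loaders and partners Cdc6, Cdt1 and Gins2, the clamp gene Pcna, the nucleotide synthesis genes Tyms, Rrm1, Rrm2, Tk1 and Dut, and Uhrf1 and Slbp, which act on DNA methylation and histone mRNA. The mitotic set holds the cyclin and kinase genes Ccna2, Ccnb1, Ccnb2, Cdk1, Aurka, Aurkb, Plk1 and Bub1, the ubiquitin ligase partners Cdc20 and Ube2c, the spindle, kinetochore and cytokinesis genes Birc5, Cdca8, Cenpe, Cenpf, Prc1, Nusap1 and Tpx2, and Mki67, Top2a, Cdca3, Stmn1 and Hmgb2.

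The promoters of both sets show these elements as letters. Of the 39 genes, 33 had at least 1 promoter in the RefSeq table (GRCm38.p6), which gives 250 bases before to 50 after each start, 36 promoters in all. Aurkb, Ccna2, Gins2, Mcm4, Stmn1 and Tpx2 had none in the table. An E2F motif (TTTCCCGC, TTTCGCGC, TTTGCCGC or TTTGGCGC, either strand) was found in 7 of 17 S-phase promoters (41.2%) and 1 of 19 mitotic promoters (5.26%), against 2.26% of all 32851 promoters. The CHR motif (TTTGAA, either strand) showed the opposite split, with 1 of 17 S-phase promoters (5.88%) and 14 of 19 mitotic promoters (73.7%), against 17.9% of all. A CCAAT box (CCAAT, either strand) was found in 70.6% of the S-phase and 89.5% of the mitotic promoters, against 37.4% of all. All 14 mitotic promoters with a CHR motif also held a CCAAT box, a pair found in 6.95% of all promoters. These are letter matches and not measured binding sites.

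The 150 bases before the start are shown for 2 S-phase and 3 mitotic genes on which the results below turn or which carry the motifs most plainly, 5' to 3' on the strand of the gene, with motif letters in capitals. Mcm5 (chr8:75109359-75109508, plus strand) and Mcm6 (chr1:128359706-128359855, minus strand) encode subunits of the replicative helicase and hold E2F motifs, 1 and 3 in the stretch. Mki67 (chr7:135716380-135716529, minus strand), Top2a (chr11:99024190-99024339, minus strand) and Hmgb2 (chr8:57511693-57511842, plus strand) hold 2, 1 and 1 CHR motifs, and each of the 5 stretches holds at least 1 CCAAT box.
Mcm5: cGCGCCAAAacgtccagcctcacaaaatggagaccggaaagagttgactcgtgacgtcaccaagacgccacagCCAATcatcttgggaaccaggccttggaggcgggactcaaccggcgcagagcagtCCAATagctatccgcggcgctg
Mcm6: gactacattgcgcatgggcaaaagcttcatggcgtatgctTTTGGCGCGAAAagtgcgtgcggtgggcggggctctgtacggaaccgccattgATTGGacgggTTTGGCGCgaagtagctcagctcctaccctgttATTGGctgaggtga
Mki67: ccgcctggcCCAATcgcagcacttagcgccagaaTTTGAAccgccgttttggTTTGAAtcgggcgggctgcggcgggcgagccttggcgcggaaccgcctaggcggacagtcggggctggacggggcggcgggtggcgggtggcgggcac
Top2a: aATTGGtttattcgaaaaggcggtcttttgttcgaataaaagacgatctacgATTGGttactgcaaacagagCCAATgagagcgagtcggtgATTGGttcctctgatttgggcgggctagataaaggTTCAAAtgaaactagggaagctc
Hmgb2: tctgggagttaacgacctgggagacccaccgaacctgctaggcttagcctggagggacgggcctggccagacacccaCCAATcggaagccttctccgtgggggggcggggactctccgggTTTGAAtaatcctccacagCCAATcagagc
In Mcm6 the first capital run is a pair of E2F motifs that overlap on opposite strands.

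The kept cells numbered 3086 and 3466, with medians of 5665.5 and 6566.5 UMIs per cell, out of 20743037 and 25314154 deposited UMIs. Cells were put in classes by fixed UMI cuts on marker genes that include none of the 39. The largest were C1q macrophages, gated on the complement genes C1qa, C1qb and C1qc (1274 and 1940 cells), and T cells, gated on Cd3d, Cd3e and Cd3g (851 and 416 cells). Of 24 markers that no gate used, 18 were highest in their own class in both hashed samples, among them Trac, Lck and Cd2 in T cells and Apoe, Cd81 and Mrc1 in C1q macrophages. Itgal in classical monocytes, Ccr2 and Cd7 in type 2 dendritic cells, Ear2 and Pglyrp1 in patrolling monocytes and Ccl5 in migratory dendritic cells were not. Of the 3214 macrophages 266 (8.28%) lay within 1.5-fold of the C1q cut. No cell barcode was shared between the hashed samples.

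Most cells held few UMIs of either set. To compare cells of unequal depth, each was thinned at random to 2000 UMIs, and the 5905 cells that reach this depth were counted as past a threshold when at least 5 of the 2000 UMIs came from the set. In 56.3% of them no UMI came from the mitotic set, and in 54.3% none came from the S-phase set. Past the threshold, pooled, were 427 cells for the mitotic set (7.23%) and 220 for the S-phase set (3.73%), with 140 past both. The mitotic sum was spread widely, since 294 cells held 10 or more and the highest cell 60, while the highest S-phase sum was 16 and only 35 cells held 10 or more. Just inside and just outside lay 147 cells with 4, 5 or 6 mitotic UMIs and 191 with 4, 5 or 6 S-phase UMIs, so that the S-phase threshold runs through a denser part of its range.

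T cells and C1q macrophages held most of the cells past the mitotic threshold, with 145 and 46 T cells and 27 and 111 macrophages. Pooled, T cells made up 44.7% of the 427 cells and 20.2% of the cells of sufficient depth, and macrophages 32.3% and 50.7%. The shares of T cells past the mitotic threshold were 18.1% (95% exact binomial interval 15.5 to 20.9, 145 of 803 cells) and 11.9% (8.81 to 15.5, 46 of 388 cells). For C1q macrophages they were 2.27% (1.502 to 3.29, 27 of 1189) and 6.15% (5.08 to 7.36, 111 of 1806). Intervals here and below cover counting error only. In each hashed sample the T cell interval lay above that of the macrophages, with a ratio of shares of 7.95 (5.25 to 12.5) and 1.93 (1.34 to 2.74). The S-phase threshold was passed by 9.71% and 7.47% of T cells and by 0.841% and 3.99% of macrophages, a ratio of 11.5 (5.96 to 25.03) and 1.87 (1.17 to 2.92). Without thinning, at 25 or more UMIs of the set per 10000, the mitotic shares were 16.6% and 10.6% in T cells and 2.12% and 5.93% in macrophages.

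**Figure D1:**
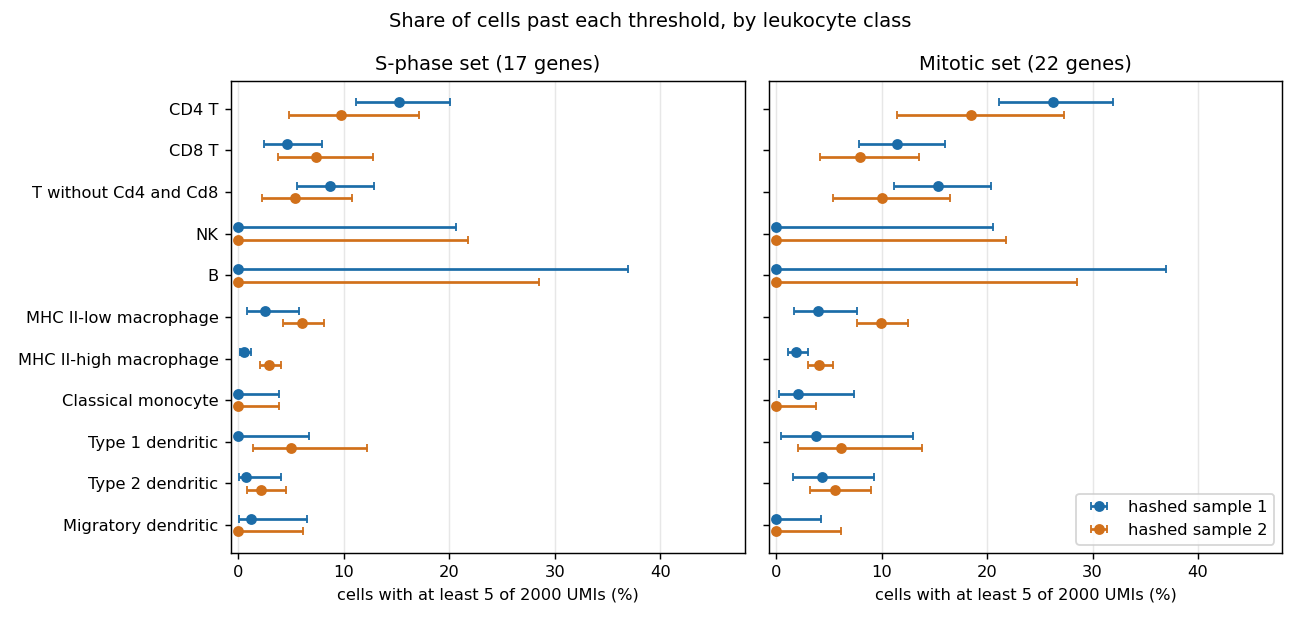
Share of cells with at least 5 of 2000 UMIs from the S-phase set (left) and the mitotic set (right) by leukocyte class, on an axis in percent. Points are hashed samples 1 and 2 and bars exact 95% binomial intervals: CD4 T cells lie highest in both panels, at 26.3% and 18.4% for the mitotic set, while NK, B and migratory dendritic cells lie at 0% for the mitotic set. Patrolling monocytes, at 8.51% and 6.25% for the mitotic set, are not shown.

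A pair of genes gave about as many mitotic-set UMIs as the other 20 together. Stmn1, which encodes a microtubule-destabilizing protein, and Hmgb2, which encodes a chromatin protein, gave 49.9% and 52.4% of the mitotic-set UMIs of T cells and 52.4% and 43.5% of those of macrophages. With both left out of the sum and the threshold still at 5 UMIs, T cells stood at 12.8% and 5.67% and macrophages at 1.68% and 4.87%, a ratio of 7.63 and 1.16. In hashed sample 2 the intervals then overlapped, at 3.59 to 8.46 in T cells and 3.93 to 5.97 in macrophages. The summed level of the remaining 20 genes was 1748 and 1196 CPM (UMIs summed over the cells of a class and scaled to a common total) in T cells and 216 and 556 CPM in macrophages, a ratio of 8.10 and 2.15. With all 22 genes in the sum, a range of 4000 to 10000 UMIs per cell, chosen after seeing the data, was also tried. The ratio of shares past the mitotic threshold was then 16.95 and 4.97. It was not taken in this range without Stmn1 and Hmgb2. Median depth was 3902 and 3463 UMIs in T cells and 6385.5 and 6963.5 in macrophages, and thinning left out 48 and 28 T cells and 85 and 134 macrophages as too shallow.

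Migratory dendritic cells and patrolling monocytes were both set as classes expected to lack the mitotic set. Patrolling monocytes did not lack it, with 4 of 47 and 4 of 64 cells past the mitotic threshold (8.51% and 6.25%). Their mitotic set summed to 1743 and 1478 CPM, and their gate is taken up below. Migratory dendritic cells have left the division cycle of their precursors as they mature. None of 84 and 58 cells was past the mitotic threshold, which allows shares of up to 3.57% and 5.17% at 3 counts of the total (exact 95% upper bounds 4.296% and 6.16%), at median depths of 8893 and 10726 UMIs, deeper than either T cells or macrophages. Their mitotic set summed to 181 and 130 CPM, against 3491 and 2515 CPM in T cells and 454 and 985 CPM in macrophages. Hmgb2 was at 82.1 and 64.4 CPM there and Mki67, which encodes the Ki-67 protein that coats mitotic chromosomes, at 12.1 and 9.20 CPM.

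Gene by gene, T cells lay above C1q macrophages in nearly all measured genes of both sets. A gene was taken as measured if either class reached 20 CPM, in hashed sample 1 and again in hashed sample 2. A measured gene was counted higher or lower when the classes differed by 1.5-fold or more the same way in both, on log2(CPM + 5), a scale that understates differences of low genes. Of the 39 genes 35 were measured, 30 were counted higher in T cells and 0 lower, where 21.4% of all measured genes were counted higher and 20.2% lower. Cdc6, Aurka, Plk1 and Bub1 were too low to be measured. Of the 35, 26 reached 20 CPM throughout in T cells but not in macrophages, so that they were measured through the class in which they were high, and neither the count nor the median below supports a difference of the set. In 9 genes both classes reached 20 CPM in both hashed samples, and 7 of these were higher in T cells, all but Pcna and Stmn1. The median log2 ratio of the 35 was 2.30 and 0.88, against 0.20 and 0.14 over all genes. With TMM scaling (edgeR), which moved the all-gene median to -0.06 and -0.11 and the share of higher among all counted genes from 51.5% to 34.5%, 22 of the 35 were counted higher and 0 lower.

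Of the S-phase set, 12 of 16 measured genes were higher in T cells. Dut, whose enzyme clears dUTP before DNA synthesis, was at 263 and 257 CPM in T cells and 24.7 and 44.5 CPM in macrophages, a log2 ratio of 3.17 and 2.40. Slbp, which encodes the binding protein of histone mRNA stem-loops, was at 113 and 103 CPM against 37.6 and 53.3 CPM. Mcm3, a helicase subunit, was at 91.9 and 90.7 CPM against 30.0 and 51.3 CPM. These T cell values were alike in the hashed samples, whereas the macrophage values were higher in hashed sample 2. Pcna, the sliding clamp of the DNA polymerases, was at 127 and 117 CPM against 63.3 and 96.1 CPM, a log2 ratio of 0.95 and 0.27 that was not counted. Gins2, Cdt1 and Tk1 were not counted either.

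Of the mitotic set, 18 of 19 measured genes were higher in T cells. Hmgb2 was at 1379 and 1080 CPM against 181 and 254 CPM, a log2 ratio of 2.90 and 2.07. Mki67 was at 266 and 162 CPM against 43.5 and 99.7 CPM, log2 2.48 and 0.68. Top2a, which encodes the topoisomerase that untangles sister chromatids, was at 202 and 137 CPM against 17.6 and 61.3 CPM, log2 3.19 and 1.09. Stmn1 was the exception, at 364 and 239 CPM against 56.9 and 175 CPM, since its log2 ratio of 0.44 in hashed sample 2 missed the cut. Each of the 35 ratios was above 0 in both hashed samples and smaller in hashed sample 2. When cells past either threshold were left out, 11 of the genes were still measured and 5 counted higher in T cells, namely Tyms, Slbp, Dut, Top2a and Hmgb2.

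**Figure D2:**
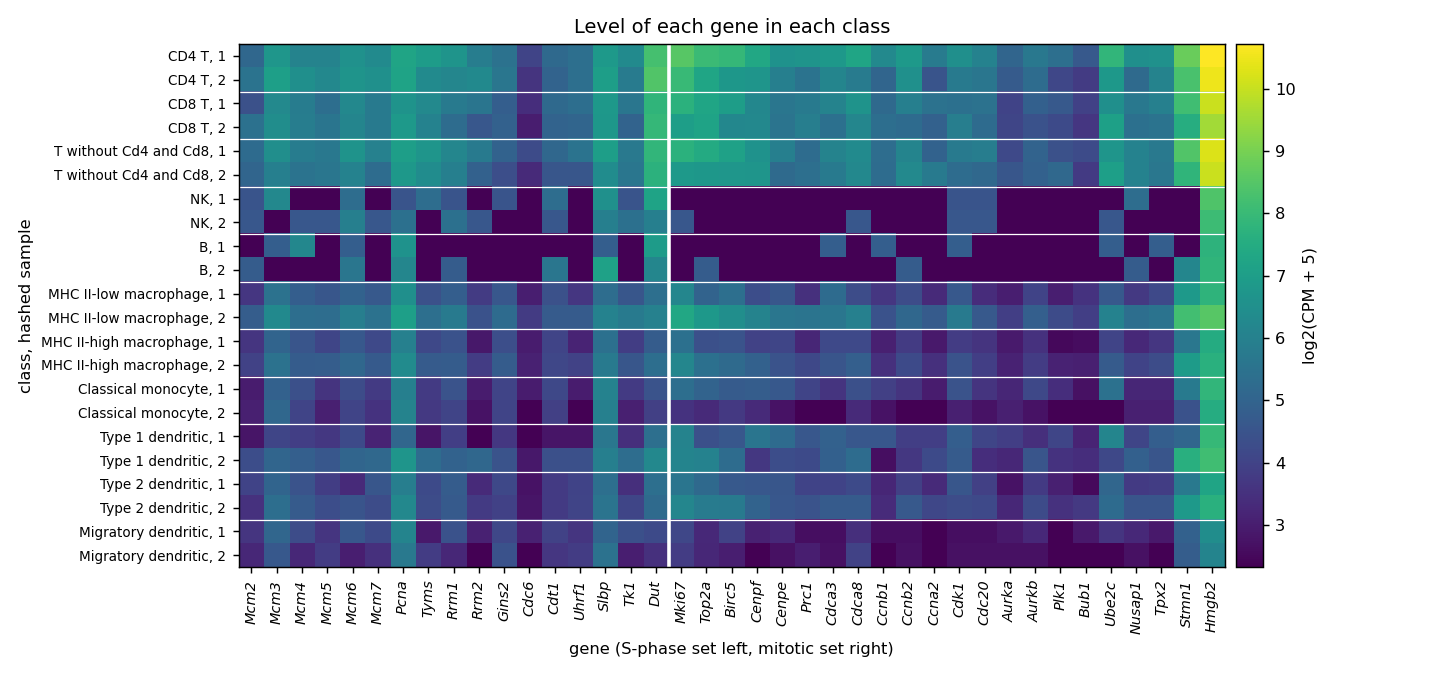
Level of each of the 39 genes, as log2(CPM + 5), in each class and hashed sample, with the S-phase set left of the white line. The T cell rows are brightest across the mitotic set. Hmgb2 is bright in the T cell rows and less bright in the migratory dendritic rows. NK and B rows, of 15 to 22 cells each, are dark for most genes. Patrolling monocytes are not shown.

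Cell cycle genes outside the 39, from lists named by function, were read the same way. Of 16 further replication genes 11 were measured and 8 were higher in T cells, with Lig1 (DNA ligase 1) at 119 and 71.8 CPM against 17.5 and 38.6 CPM. All 13 measured of 20 further mitosis genes were higher, among them the kinesin Kif11 at 48.6 and 31.8 CPM against 3.19 and 13.0 CPM. Of all measured genes 21.4% were counted higher and 20.2% lower. A gene could be measured through T cells alone, as Kif11 was, so that the counts of these lists do not support a difference of the lists. The G1 and control list split, with 7 of 15 measured genes higher and 2 lower. Ccnd2 (cyclin D2) was higher in T cells, at 300.6 and 409 CPM against 95.8 and 144 CPM. Ccnd1 (cyclin D1) was lower, at 9.504 and 8.64 CPM against 112 and 211 CPM, as was Cdkn1a, which encodes the cyclin-dependent kinase inhibitor p21, at 38.5 and 47.5 CPM against 270 and 276 CPM.

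Within T cells, CD4 cells had the higher share past the mitotic threshold, but this order moved with how the cells were gated. CD4 T cells stood at 26.3% (21.1 to 32.0, 71 of 270) and 18.4% (11.5 to 27.3, 19 of 103), and CD8 T cells at 11.5% (7.89 to 16.0, 30 of 261) and 8% (4.20 to 13.6, 12 of 150). The CD8 to CD4 ratio was 0.437 (0.275 to 0.679) and 0.434 (0.192 to 0.941). T cells with neither Cd4 nor Cd8 UMIs lay between, at 15.4% and 10.0%. A single Cd4 UMI sets the CD4 gate, and CD4 cells were deeper, with medians of 5115.5 and 3698 UMIs against 3487 and 3572 in CD8 cells. When the gates were set on thinned counts, the ratio was 0.623 and 1.05, with CD4 cells at 17.8% and 8.93%, so that in hashed sample 2 the direction turned. For the S-phase set the ratio was 0.303 (0.145 to 0.587) and 0.755 (0.291 to 1.98), and 0.730 and 1.75 with gates on thinned counts.

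In CD8 against CD4 T cells 12 of 36 measured genes were counted lower and 0 higher, where 3.22% of all measured genes were counted lower and 2.15% higher. These counts use the gates on unthinned counts, under which CD4 cells were deeper, and were not repeated with gates on thinned counts. Both classes reached 20 CPM in both hashed samples in 31 of the 36, of which 10 were lower. The 12 were Mcm5, Mcm7, Rrm1, Gins2 and Tk1 of the S-phase set and Mki67, Cdca3, Ccnb2, Aurka, Aurkb, Stmn1 and Hmgb2 of the mitotic set. The median log2 ratio was -0.68 and -0.52, against -0.08 and -0.09 over all genes. Mki67 was at 199 and 126 CPM in CD8 cells and 365 and 245 CPM in CD4 cells, log2 -0.86 and -0.93. Hmgb2 was at 1060 and 750 CPM against 1681 and 1464 CPM, and Stmn1 at 276 and 184 CPM against 441 and 313 CPM. Top2a differed by 1.5-fold in hashed sample 1 only, at 149 and 141 CPM against 261 and 147 CPM. Dut, at 222 and 235 CPM against 298 and 341 CPM, and Mcm3, at 71.8 and 82.5 CPM against 102 and 130 CPM, were lower in both hashed samples but by under 1.5-fold in at least 1 of them. Pcna stood at 95.2 and 109 CPM against 143 and 140 CPM, and Slbp at 107 and 105 CPM against 108 and 126 CPM. At 2-fold in both hashed samples 0 of the 36 were counted, where 0.764% of all genes were lower. Without the cells past either threshold 13 were measured and Mki67 alone was lower, where 4.55% of all genes were. Of the G1 and mitosis lists, 1 of 18 measured G1 and control genes (Cdk2) and 4 of 14 mitosis genes (Kif11, Cks1b, Mad2l1 and Ckap2l) were counted lower, and Myc, a growth-promoting transcription factor gene of the G1 and control list, higher.

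Regulatory T cells, marked by Foxp3, were few. Of the 28 and 11 Foxp3-positive CD4 cells, 5 and 2 were past the mitotic threshold (17.9% and 18.2%), against 27.3% and 18.5% of Foxp3-negative CD4 cells. The ratio, 0.655 (0.206 to 1.61) and 0.984 (0.110 to 4.15), was not resolved at this number of cells. Top2a alone of 35 measured genes was counted higher, at 398 and 212 CPM against 245 and 138 CPM, and 0 were lower, where 5.75% and 5.10% of all measured genes were counted higher and lower. With TMM scaling, which moved the all-gene median from 0.02 and -0.03 to -0.11 and -0.26 and the share of higher among all counted genes from 53.0% to 31.4%, 0 were higher and 2, Dut and Cdc20, lower.

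**Figure D3:**
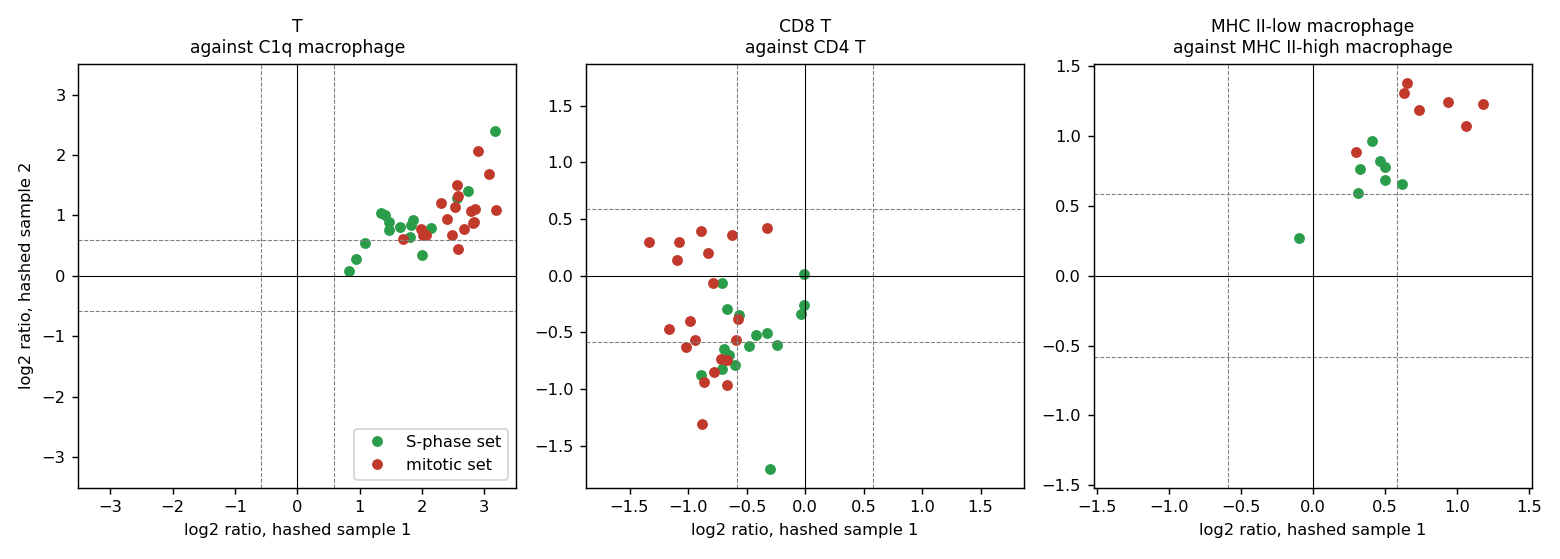
Log2 ratio of CPM + 5 for each measured gene in hashed sample 1 (horizontal) and hashed sample 2 (vertical) for 3 comparisons, with dashed lines at 1.5-fold. In the left panel all points lie above 0 on both axes; in the middle panel 7 mitotic genes lie below 0 in hashed sample 1 and above 0 in hashed sample 2; in the right panel 6 of 7 mitotic genes lie beyond the lines on both axes.

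Among C1q macrophages the MHC II-low cells, those in which H2-Ab1, H2-Aa and H2-Eb1 made up under 40 per 10000 UMIs, held the larger share of cells past the thresholds, in hashed sample 1 only at some cuts. MHC class II molecules present antigen to CD4 T cells, and MHC II-negative resident macrophages are named in the design of the study. The mitotic threshold was passed by 3.98% (1.73 to 7.69, 8 of 201) and 9.92% (7.71 to 12.5, 63 of 635) of MHC II-low and 1.92% (1.16 to 2.99, 19 of 988) and 4.10% (3.04 to 5.40, 48 of 1171) of MHC II-high macrophages. The ratio was 2.07 (0.784 to 4.95) and 2.42 (1.64 to 3.60), so that the interval included 1 in hashed sample 1. For the S-phase set, shares were 2.49% and 5.98% against 0.506% and 2.90%, a ratio of 4.92 (1.13 to 21.4) and 2.06 (1.26 to 3.38). Medians of depth were close, at 7102 and 7002.5 UMIs against 6320.5 and 6951.

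The share was not a smooth function of the MHC II level in hashed sample 1. There, 3 of 92 cells under 10 MHC II UMIs per 10000 were past the mitotic threshold, 0 of 51 from 10 to 20, 5 of 58 from 20 to 40 and 11 of 88 from 40 to 80 (12.5%), followed by 0.581%, 1.39% and 0.337% in the bins above. In hashed sample 2 the bins ran 10.6%, 10.9%, 6.25%, 5.56%, 6.76%, 4.89% and 0.857%. The highest bin, 320 or more per 10000, was lowest but for the empty bin of hashed sample 1. The cut of 40 lies just under the highest bin of hashed sample 1, and 235 of 3214 macrophages (7.31%) lay within 1.5-fold of it. With the cut at 80 the mitotic ratio was 7.40 and 2.35, and with the cut at 20 it was 0.914 and 2.50, so that the direction in hashed sample 1 depends on the cut. By C1q level the mitotic share was 0.514% and 2.10% from 200 to 300 C1q UMIs per 10000, below that of each bin under 200, and 0 of 46 and 0 of 63 cells from 300 up, where median depth was 4191.5 and 5121 UMIs.

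**Figure D4:**
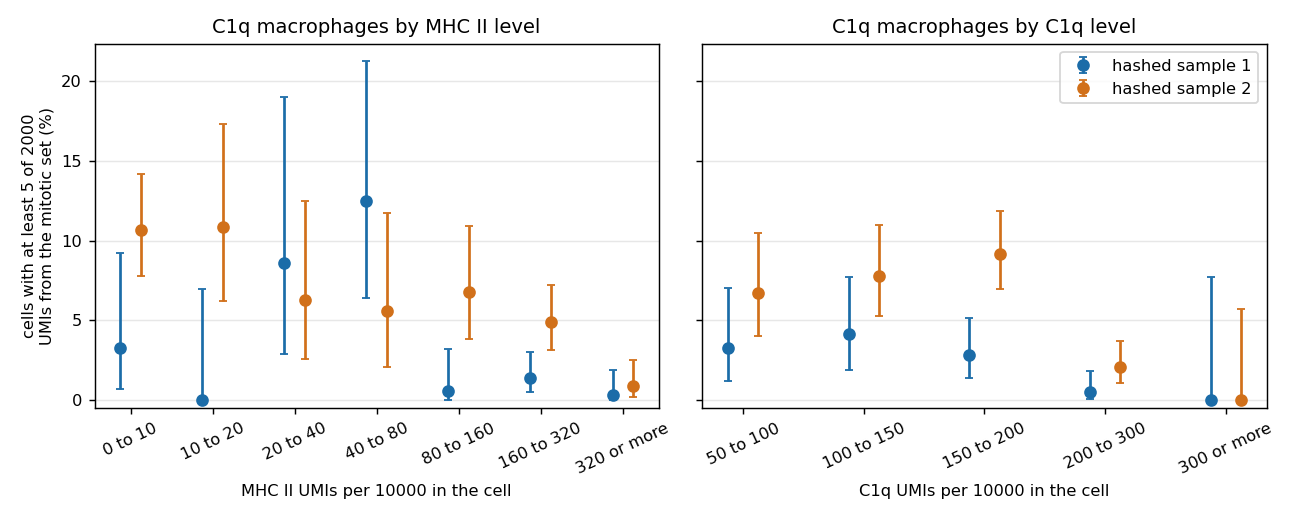
Percent of C1q macrophages with at least 5 of 2000 UMIs from the mitotic set, by MHC II level (left) and C1q level (right) in UMIs per 10000, for hashed samples 1 and 2 with exact 95% binomial intervals. The bins of highest MHC II and highest C1q lie below 1% in both hashed samples, while at low MHC II the hashed samples differ.

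Of the 39 genes only 15 were measured between MHC II-low and MHC II-high macrophages. Counted higher in MHC II-low cells were 7 of these 15 and lower 0, where 3.05% of all measured genes were counted higher and 1.85% lower. Of the 15, 8 reached 20 CPM in both hashed samples in MHC II-low cells alone, among them Top2a, Birc5, Cdca3 and Ube2c, and were measured through the group in which they were high, so that the count and the median do not support a difference of the set. Of the 7 genes that reached it in both groups, Dut, Mki67 and Stmn1 were higher. The median log2 ratio of the 15 was 0.50 and 0.88, against 0.12 and 0.13 over all genes. Mitotic genes gave 6 of the 7, namely Mki67, Top2a, Birc5, Cdca3, Ube2c and Stmn1, and Dut the other. Stmn1 was at 109 and 282 CPM against 45.2 and 117 CPM, log2 1.18 and 1.23, and Mki67 at 66.9 and 160 CPM against 38.2 and 67.5 CPM, log2 0.73 and 1.19. Birc5, which encodes survivin of the chromosomal passenger complex, was at 37.2 and 83.6 CPM against 17.01 and 32.4 CPM. Cdca3, which encodes a trigger of mitotic entry, was at 32.8 and 43.8 CPM against 13.1 and 18.2 CPM. Each was higher in MHC II-low cells within both hashed samples, while MHC II-high cells of hashed sample 2 passed MHC II-low cells of hashed sample 1 in Mki67, Top2a, Ube2c and Stmn1.

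Hmgb2, at 214 and 364 CPM against 173 and 195 CPM, was not counted. The median log2 ratio was 0.73 and 1.23 over the 7 measured mitotic genes and 0.44 and 0.73 over the 8 measured S-phase genes. Pcna stood at 84.9 and 129 CPM against 58.4 and 78.3 CPM, Mcm3 at 40.3 and 73.5 CPM against 27.7 and 39.5 CPM and Slbp at 35.3 and 60.7 CPM against 38.1 and 49.3 CPM. With TMM scaling, which moved the all-gene median to -0.02 and -0.02 and the share of higher among all counted genes from 62.3% to 37.9%, 13 genes were measured and 4 counted higher, Mki67, Birc5, Cdca3 and Stmn1. Without cells past either threshold 8 genes were measured and Stmn1 alone was counted. Gmnn (geminin, which keeps replication from starting again) was the single gene of the further lists that was counted, at 39.02 and 55.7 CPM against 23.6 and 34.9 CPM.

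The other myeloid classes held fewer cells. Of classical monocytes, 2 of 95 and 0 of 95 were past the mitotic threshold (2.11% and 0%, which allows up to 3.16%), and 0 of 95 in each past the S-phase threshold. Type 1 dendritic cells stood at 3.77% and 6.17% for the mitotic set (2 of 53 and 5 of 81) and type 2 dendritic cells at 4.38% and 5.63% (6 of 137 and 16 of 284), and their intervals overlapped widely. Neither C1q macrophages against classical monocytes (12 genes measured) nor type 1 against type 2 dendritic cells (14 measured) had a gene counted higher or lower. Of all measured genes, 6.70% were counted higher and 4.44% lower in the first and 5.57% and 8.52% in the second. Against classical monocytes the median log2 ratio of the measured genes was 0.05 and 1.89, against -0.01 and 0.00 over all genes, so that the hashed samples differed. Between the dendritic classes it was 0.13 and 0.24, against -0.03 and -0.08 over all genes. Mki67 was at 43.5 and 99.7 CPM in macrophages and 35.6 and 6.62 CPM in monocytes.

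Among NK cells, 0 of 16 and 0 of 15 were past the mitotic threshold and among B cells 0 of 8 and 0 of 11, numbers that allow shares of 18.8% to 37.5% at 3 counts of the total (exact 95% upper bounds 20.6% and 21.8% for NK and 36.9% and 28.5% for B cells). The patrolling monocyte gate held 4 of 47 and 4 of 64 such cells (8.51% and 6.25%), and 7 of these 8 cells passed the gate through Spn, having under 2 UMIs of Ace, Treml4 and Cd300e together. With Spn left out of the gate, an alternative chosen after seeing the data, 1 of 31 and 0 of 42 remained past the threshold.

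Within both main classes some cells were past 1 threshold only and others past both. For each gene, cells were grouped by the sums of the other genes, the gene's own UMIs being left out, into those past the S-phase threshold only, both, the mitotic threshold only or neither. With all genes in the sums, T cells divided into 18, 60, 85 and 640 cells in hashed sample 1 and 10, 19, 27 and 332 in hashed sample 2. C1q macrophages divided into 5, 5, 22 and 1157 and into 37, 35, 76 and 1658 cells, so that several groups were small. All 22 mitotic genes were higher in mitotic-only than in S-only cells, in both classes and both hashed samples. Of the 17 S-phase genes, 14 and 12 in T cells and 16 and 14 in macrophages were higher in S-only than in mitotic-only cells. Since the other genes of the same set place the cells, these directions are largely given by the grouping and do not support a separation of the sets. The highest level of each S-phase gene lay in S-only cells or in cells past both, never in mitotic-only cells. The highest level of a mitotic gene lay in mitotic-only cells for 19 and 18 genes in T cells and 12 and 19 in macrophages, and in cells past both for the rest. The groups also differed in depth, with pooled median UMIs of 7651.5, 10351, 7232 and 3575.5 in T cells and 9117.5, 12335, 10590 and 6889 in macrophages, and the part of depth was not tested.

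Among the S-phase genes, Mcm2 and Mcm4 were highest in S-only T cells in both hashed samples, and Mcm3, Mcm4 and Gins2 in S-only macrophages. Mcm4 was at 169 and 247 CPM in S-only, 151 and 186 CPM in both and 51.2 and 71.7 CPM in mitotic-only T cells. Mcm3, Mcm5, Mcm6, Gins2 and Cdc6 were highest in S-only T cells of hashed sample 1 and in T cells past both in hashed sample 2. Mcm5 was at 174 and 174 CPM in S-only and 154 and 208 CPM in both.

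Rrm2, the small subunit of ribonucleotide reductase, was at 46.2 and 34.8 CPM in S-only, 195 and 194 CPM in both and 81.4 and 100.005 CPM in mitotic-only T cells. Rrm2 and Rrm1 were the S-phase genes of T cells that were higher in mitotic-only than in S-only cells in both hashed samples. In macrophages Tk1, the thymidine kinase gene, was higher in mitotic-only cells in both, at 109 and 158 CPM against 61.8 and 137 CPM in S-only cells. Rrm1 of macrophages went in opposite directions, at 108 and 117 CPM in S-only and 57.3 and 131 CPM in mitotic-only cells.

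Mitotic genes differed in how much of their level was already present in S-only cells. Top2a was at 207 and 211 CPM in S-only, 604 and 507 CPM in both and 428 and 341 CPM in mitotic-only T cells. Cdc20, an activator of the anaphase-promoting complex, was at 6.21 and 0 CPM, 58.4 and 84.4 CPM and 226 and 218 CPM in the same groups. In macrophages Cdc20 stood at 0 and 11.1 CPM, 34.9 and 24.3 CPM and 186 and 181 CPM. Thus Top2a and Stmn1 were highest in cells past both thresholds in each class and hashed sample, while Cdc20, Cenpe, Ccnb1, Ccnb2 and Plk1 were highest in mitotic-only cells.

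**Figure D5:**
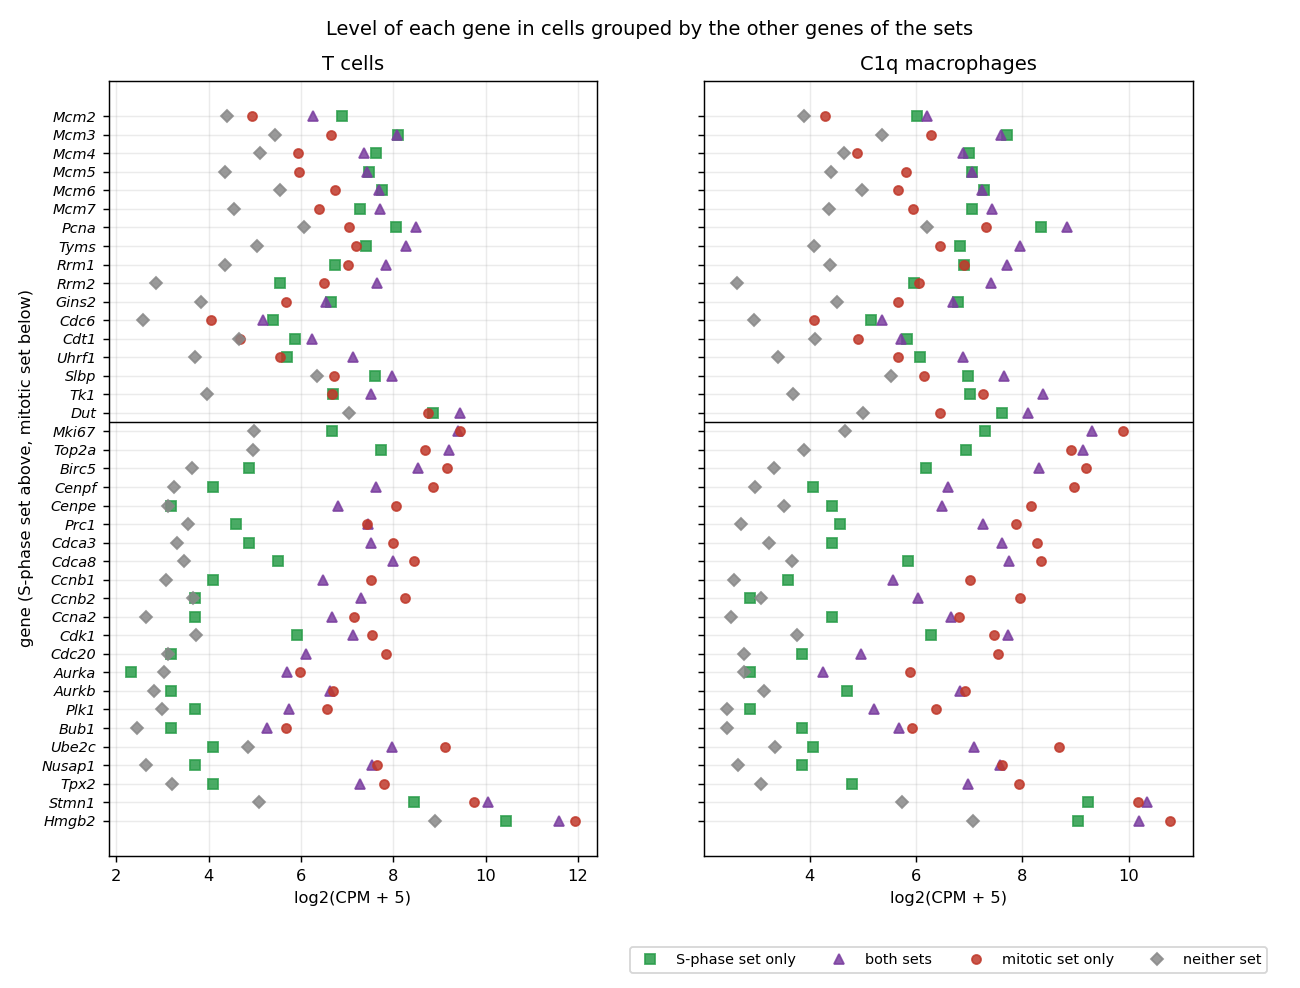
Level of each gene, as log2(CPM + 5), in T cells (left) and C1q macrophages (right) past the S-phase threshold only, both, the mitotic threshold only or neither, the gene's own UMIs being left out of the grouping and the hashed samples pooled. Green squares lie to the right of red circles for most S-phase genes and to the left for all mitotic genes, and grey diamonds show Hmgb2 at 472 CPM in T cells past neither.

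The genes also differed in how far their UMIs lay in cells past a threshold of the other genes, here with the hashed samples pooled. In T cells, Nusap1, which encodes a spindle protein, was 135-fold higher past either threshold than in the rest (exact interval 57.4 to 418), and 98.7% of its UMIs lay in those cells. The median fold was 34.0 for the mitotic and 7.52 for the S-phase set in T cells, and 47.8 and 5.12 in macrophages. With all genes in the sums, 28 T cells were past the S-phase threshold only, 79 past both and 112 past the mitotic threshold only. Among macrophages these were 42, 40 and 98 cells. Since mitotic-only cells were the largest group, the grouping favours the mitotic set, and the folds do not support a difference between the sets. The lowest folds were those of Slbp (2.24 and 2.62) and Cdt1, the licensing factor gene (2.27 and 2.98), in T cells and macrophages. Hmgb2 was present in the rest of the T cells, at 472 CPM against 129 CPM in the rest of the macrophages, with a fold of 6.41 in T cells (6.09 to 6.75) and 10.1 in macrophages (9.52 to 10.6). After thinning, 52.8% of T cells past neither threshold still held a Hmgb2 UMI, and 21.3% of such macrophages. The same share of T cells was 3.59% for Stmn1, 4.62% for Mki67 and 0.823% for Cdc20.

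Cell cycle genes of the further lists were also read in these cells. Since the sums chose the cells, the members themselves are a description here: 38 of 38 measured were higher in T cells past either threshold and 35 of 36 in macrophages, where 12.3% and 8.41% of all measured genes were counted higher and 8.15% and 1.85% lower. Of the further replication genes, 15 of 15 measured were higher in T cells and 10 of 10 in macrophages, led by Clspn (claspin, a checkpoint adaptor) at 139 and 93.9 CPM against 4.40 and 0.789 CPM in T cells. Of the further mitosis genes, 16 of 17 and 19 of 20 were higher. The G1 and control list gave 12 of 23 higher and 2 lower in T cells, and 9 of 19 higher and 1 lower in macrophages. A gene could be measured through the cells past a threshold alone, as Clspn of T cells was. The counts of these lists therefore do not support a difference of the lists. Foxm1, the mitotic transcription factor gene, rose from 0.733 and 0 CPM to 33.7 and 23.9 CPM in T cells and from 0.843 and 0.640 CPM to 53.1 and 35.4 CPM in macrophages. Ccnd2 was lower in both, at 190 and 296 CPM against 368 and 452 CPM in T cells and at 37.2 and 67.0 CPM against 97.6 and 153 CPM in macrophages.

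Outside all lists, replication-dependent histone genes led in both classes. Hist1h1b, the linker histone H1.5 gene, was at 1385 and 871 CPM against 18.3 and 21.3 CPM in T cells, and at 422 and 844 CPM against 6.75 and 9.52 CPM in macrophages. Hist1h2ap, Hist1h2ae, Hist1h2ab and Hist1h3c, and Pclaf, the PCNA clamp-associated factor gene, were among the 10 largest in both. The histone genes are a family of near-identical copies whose mRNAs are mostly not polyadenylated, so that their counts are uncertain. Lower in T cells past a threshold were genes of the effector program, Ccl5 at 734 and 596 CPM against 4080 and 4283 CPM, Ccl4, Gzmb, Klrk1 and Klrd1, and also Bcl2, the survival gene, at 58.0 and 92.0 CPM against 390 and 504 CPM. Lower in macrophages past a threshold were the interferon-induced chemokine gene Cxcl9, at 5.31 and 3.66 CPM against 198 and 63.1 CPM, the heat shock genes Hspa1a and Hspa1b, and Mmp12, at 53.1 and 103 CPM against 291 and 339 CPM.

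Cells past a threshold also differed in lineage genes. In C1q macrophages the median MHC II level was 57.4 and 18.9 UMIs per 10000 past either threshold and 216 and 151 in the rest, while C1q was at 150 and 165 against 178 and 177 per 10000. In T cells the Cd3 genes were at 1435 and 1367 CPM against 1782 and 1833 CPM, and C1q, which T cells do not express, at 207 and 186 CPM against 439 and 553 CPM. Depth moved with them, at medians of 8458 and 8390 UMIs against 3647.5 and 3433 in T cells and of 10659 and 10642.5 against 6590 and 7026.5 in macrophages. The part of depth and of free RNA in these differences was not tested.

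The hashed samples differed in opposite directions in the main classes. From hashed sample 1 to hashed sample 2 the mitotic share of T cells was lower, with a ratio of 0.657 (0.461 to 0.921), and that of C1q macrophages higher, with a ratio of 2.71 (1.76 to 4.29). The macrophage difference held within MHC II-low (2.49, 1.19 to 6.02) and MHC II-high cells (2.13, 1.23 to 3.84), and the S-phase set gave 4.74 (2.43 to 10.3) for all macrophages. The hashed samples also differed in makeup, with MHC II-low cells at 216 of 1274 and 672 of 1940 macrophages. With 1 value for each hashed sample, a difference between animals, if they are such, cannot be told apart from any other difference between the hashed samples.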

How the data were processed

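The deposited values were UMI counts per gene and cell in 2 tables, made by the authors with Cell Ranger 6.1.1 per the file headers, while the submitters' processing notes list mm10 as build, Seurat 4.3.0 and Cell Ranger 6.0. Expression of the Visium section of the same series was not analysed here. Kept were cells with 500 or more UMIs, 200 or more genes and at most 10% mitochondrial UMIs (414 of 7015 barcodes removed), and 44 Scrublet (scanpy 1.11.5) and 5 hashtag doublets were taken out. Classes came from marker gates, and C1q macrophages needed 50 C1q UMIs per 10000. Cells were thinned to 2000 UMIs for shares. Levels are CPM of summed counts, with log2 ratios at a pseudocount of 5. With 1 capture and no labelled replicate there was no test, and intervals are exact at 95%. Steps were tested on simulated data. Each comparison names the 4 genes of each set with the highest mean CPM, any other of the 39 freely, up to 6 counted genes per further list by size of log2 ratio, and, in cells past a threshold, the 10 largest and 10 smallest ratios outside the lists. The 39 genes, lists, gates and rules were chosen with earlier results of these data known. Alternative settings, 25 in all, included TMM factors (edgeR 4.0.16), and 3 more were added after seeing the data.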

Additional observations from a re-analysis of the deposited data

Results flagged for a closer look

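Cells that the comparisons do not use also held cells past the mitotic threshold, above the 0 of 84 and 0 of 58 of migratory dendritic cells. Cells with marker genes of several classes at once were past it in 29.3% and 21.9%, 24 of 90 cells of at least 2000 UMIs in all, and 19 of these 24 held 2 or more Cd3 UMIs at a median of 12200 UMIs. Cells that met no gate were past it in 5.31% and 5.60%, and cells set aside for tubular RNA in 9.38% and 6.45%. Of the removed doublets, 6 of 43 were past it. None of these differences was tested.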

How the results depend on the processing

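No paired analysis was possible because the result comes from no test and the hashed samples share 1 GEO sample. Leaving out a replicate would leave 1 hashed sample, so shares, ratios and summed levels are given for each apart. Depth limits the rare classes most, as 0 of 8 B cells allows a share of up to 37.5%. Over the alternatives, 309 of 386 shares, 177 of 190 share ratios and 84 of 108 counts of genes stayed within their limits, as did 0 of 24 summed levels, and the rest follow, hashed sample 1 before hashed sample 2, causes not tested. The ratio of CD8 to CD4 T cells past the mitotic threshold in hashed sample 2 changed side, at 1.05 with gates on thinned counts. Ratios with a share of 0% on either side were not formed and are not among the 190. At 8 UMIs this held for the S-phase ratio of MHC II-low to MHC II-high macrophages in hashed sample 1, whose order also turned. Of ratios whose interval included 1, CD8 to CD4 for the S-phase set in hashed sample 2 also crossed it, at 1.75 with gates on thinned counts, 1.03 with thinning to 1000 UMIs and 1.40 in cells of 4000 to 10000 UMIs. MHC II-low to MHC II-high for the mitotic set in hashed sample 1 crossed it at 0.914, with an MHC II cut of 20. That gating also moved CD4 cells to 6.98% for the S-phase set in hashed sample 1 and 17.8% and 8.93% for the mitotic set, and the S-phase CD8 to CD4 ratio to 0.730.

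With thinning to 4000 UMIs and at least 10, the S-phase shares were 17.7% and 14.7% in T cells, 12.6% in CD8 cells of hashed sample 1 and 19.1% in CD4 cells of hashed sample 2. The mitotic shares were then 30.3% and 24.7% in T, 34.0% and 34.0% in CD4 and 24.3% and 16.4% in CD8 cells. The CD8 to CD4 ratio in hashed sample 1 became 0.678 (S-phase) and 0.713 (mitotic), and the T to macrophage ratio in hashed sample 2 became 3.71 and 3.42.

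At 3 UMIs the S-phase shares were 18.4% and 13.7% in T, 2.78% and 9.91% in C1q macrophages, 6.97% and 15.4% in those low in MHC II and 1.92% and 6.92% in those high in it, and in hashed sample 1 25.9% in CD4 and 10.7% in CD8 cells. The mitotic shares were 27.9% and 19.8% in T, 38.1% and 29.1% in CD4, 17.6% and 14.0% in CD8 cells, 4.37% and 9.58% in macrophages, 7.96% and 15.0% in those low in MHC II and 3.64% and 6.66% in those high in it. At 8 UMIs the S-phase shares were 4.98% and 2.58% in T, 7.78% and 3.88% in CD4, 2.30% and 2.67% in CD8, 0.168% and 1.11% in macrophages, 0% and 1.89% in MHC II-low and, in hashed sample 2, 0.683% in MHC II-high. In hashed sample 1 this reversed the main order of MHC II-low and MHC II-high cells. The macrophages past the threshold there (0.168%) were all MHC II-high. The mitotic shares were 14.9% and 7.47% in T cells and, in hashed sample 2, 3.33% in CD8 cells and 4.71% in macrophages, and the S-phase T to macrophage ratio was 29.6 in hashed sample 1.

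Without Stmn1 and Hmgb2 the mitotic shares were 12.8% and 5.67% in T, 18.5% and 9.71% in CD4 cells and, in hashed sample 2, 3.33% in CD8 cells, 4.87% in macrophages and 2.90% in MHC II-high macrophages, with a T to macrophage ratio of 1.16. Without Slbp and Dut the S-phase shares were 6.97% and 4.64% in T cells, 10.7% in CD4 cells of hashed sample 1 and 3.10% in macrophages of hashed sample 2. An MHC II cut of 80 gave 0.889% in MHC II-high macrophages of hashed sample 1 and a ratio of 7.40. In cells of 4000 to 10000 UMIs the S-phase shares were 0.125% and 2.29% in macrophages, 0.800% and 3.25% in MHC II-low, 0% and 1.74% in MHC II-high and 10.7% in T cells of hashed sample 2. The mitotic shares were 21.1% and 15.6% in T cells, 1.25% and 3.14% in macrophages, 1.03% and 2.14% in MHC II-high and 4.87% in MHC II-low of hashed sample 2. The T to macrophage ratios were 93.6 and 4.66 (S-phase) and 16.95 and 4.97 (mitotic). Without Spn in the gate 0% of patrolling monocytes of hashed sample 2 were past the mitotic threshold.

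Of the counts of the 39 genes, T cells against macrophages gave 18 higher at a minimum of 50 CPM, 13 at 2-fold and 5 without cells past a threshold. CD8 against CD4 gave 0 lower at 2-fold and 1 without cells past a threshold. Foxp3-positive against Foxp3-negative cells gave 0 higher under TMM factors, at a pseudocount of 10, at 2-fold and without cells past a threshold. For the same cells 4 were lower without cells past a threshold, 2 under TMM factors, and 1 each at a pseudocount of 1 and with doublets kept. MHC II-low against MHC II-high macrophages gave 2 higher at 50 CPM and at 2-fold, 1 without cells past a threshold, 4 under TMM factors and at a pseudocount of 10, and 11 with no minimum. Macrophages against classical monocytes gave 1 higher without cells past a threshold and with stricter gates, and 2 with no minimum. Type 1 against type 2 dendritic cells gave 1 lower without cells past a threshold and 3 higher with stricter gates.

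As a mean of per-cell levels in place of summed counts, the S-phase set stood at 812 and 699 CPM in T, 989.7 and 778 in CD4, 626 and 701 in CD8 cells, 277 and 452 in macrophages, 343 and 604 in those low in MHC II and 263 and 372 in those high in it. The mitotic set stood at 2069 and 1286 CPM in T, 2959.5 and 1895 in CD4, 1445 and 910.4 in CD8 cells, 383 and 735 in macrophages, 561 and 1109.6 in those low in MHC II and 346 and 536 in those high in it.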
